A study of Homo sapiens with 7 samples.

Results

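Mucin genes were examined in HCT116 cells treated with bafilomycin A1. The mucins were taken by gene name: the 8 genes MUC1, MUC2, MUC4, MUC5B, MUC12, MUC13, MUC17 and MUC20 were represented by 18 probes, out of 36337 gene names and 50599 probes on the array. According to the gene descriptions in the files and general knowledge of the family, MUC2 and MUC5B are secreted, gel-forming mucins (2 genes, 5 probes) and the other genes encode membrane mucins (6 genes, 13 probes). HCT116 is a human colon carcinoma cell line, used here as the derivative with histone H2B-GFP that the labels call diploid, grown in DMEM with 10% serum by the labels. Each of the 4 samples was a replicate given 10 nM bafilomycin A1, an inhibitor of the vacuolar proton pump, for 30 h, and its total RNA was hybridised to 1 single-colour Agilent array. Untreated samples (3 by the labels) are not analysed here, and every value below describes treated cells and none is a response to the drug.

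Mucins are large glycoproteins whose serine- and threonine-rich tandem repeats carry dense O-linked glycans. Goblet cells secrete the gel-forming members, which crosslink into the mucus layer, with MUC2 as the main mucin of colonic mucus, whereas membrane mucins are anchored at the apical surface, where they build the glycocalyx and can act in signalling. The enzymes of the GALNT family attach the first sugar of these glycans in the Golgi apparatus, and further glycosyltransferases extend it.

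MUC4 and MUC2 were the genes in which the same probe was above background on every array. Their probe sequences are shown because probes of 1 gene differed in detection or between arrays. All probes were 60 bases long, coordinates are those of GRCh37 as given in the files, and each probe is named by the position number the files give it, read here as its place in bases along the transcript. For MUC2 that reading does not hold against the genome build throughout: the probes at positions 4182 and 13085 are 8903 bases apart by these numbers but 2816 bases apart on GRCh37, so the numbers are used for MUC2 as names and as an order only. No exon annotation of GRCh37 was used here. The MUC4 probes lie on the minus strand at chr3:195514780-195514839 (position 4391), chr3:195514760-195514819 (position 4411), chr3:195506310-195506369 (position 12237) and chr3:195474164-195474223 (position 16218). In the lines for MUC4, listed in that order, capitals mark the longest run that a probe shares with another MUC4 probe. The first pair overlaps on the genome with an offset of 20 bases and shares a run of 40 bases, the probe at position 12237 shares 21 bases with the probe at position 4391 although their position numbers are more than 7826 bases apart, and the probe at position 16218 shares no run of 15 bases or more with the others. The probes at positions 4411 and 12237 share no such run with each other.
MUC4 A_24_P239177: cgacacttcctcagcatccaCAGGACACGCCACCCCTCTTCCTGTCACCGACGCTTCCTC
MUC4 A_24_P239176: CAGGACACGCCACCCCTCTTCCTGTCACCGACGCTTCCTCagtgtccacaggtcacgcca
MUC4 A_33_P3417281: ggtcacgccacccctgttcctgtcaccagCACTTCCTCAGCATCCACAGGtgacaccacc
MUC4 A_24_P208825: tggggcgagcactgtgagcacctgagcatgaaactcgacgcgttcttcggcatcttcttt

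The MUC2 probes lie on the plus strand at chr11:1080924-1080983 (position 1334), chr11:1092337-1092396 (position 4182), chr11:1095153-1095212 (position 13085) and chr11:1103558-1103831 (position 15183). The last of these covers 274 bases of the genome with 60 bases of probe and so spans at least 1 intron. These sequences, in the same order, share no run of 15 bases or more with each other or with a probe of another name, and no letters are capitalised.
MUC2 A_33_P3412384: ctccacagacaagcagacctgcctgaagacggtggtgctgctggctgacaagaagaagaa
MUC2 A_33_P3401571: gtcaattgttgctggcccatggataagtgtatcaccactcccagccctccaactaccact
MUC2 A_24_P84657: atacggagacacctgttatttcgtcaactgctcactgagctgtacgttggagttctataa
MUC2 A_23_P256784: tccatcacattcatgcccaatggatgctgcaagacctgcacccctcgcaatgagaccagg

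Of the 8 mucin genes, 2 were detected, that is, had a probe flagged by the scanner software as well above background on all 4 arrays, against 52.5% of all gene names. The detected genes were the secreted MUC2, 1 of 2 secreted mucins, and the membrane mucin MUC4, 1 of 6 membrane mucins. By probe, 6 of 18 were detected, against 48.7% of all probes, made up of 2 of 5 probes for secreted and 4 of 13 probes for membrane mucins. A further 4 genes were above background on some arrays or through different probes (MUC1, MUC5B, MUC17 and MUC20), and MUC12 and MUC13 on none. With 2 and 6 genes the difference between secreted and membrane mucins was not tested, and it depended on how detection was defined. If a probe above background on any 1 array sufficed, the counts were 2 of 2 and 4 of 6, beside 64.5% of all gene names.

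**Figure D1:**
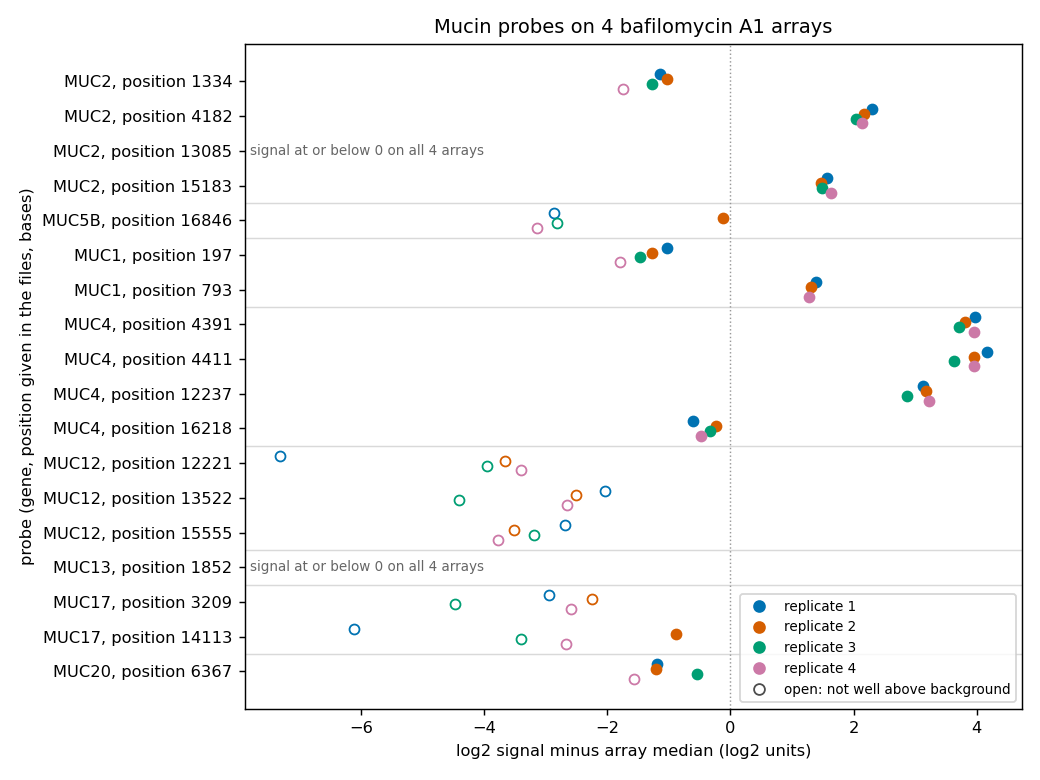
Log2 signal minus the array median (x axis, log2 units) of each of the 18 mucin probes (y axis, gene and position number) on the 4 bafilomycin A1 arrays, 1 point per array. Filled points are well above background and open points are not; the MUC1 probe at position 793 has no point for replicate 3, and a probe with signals at or below 0 has no log2 value. The MUC2 probes at positions 4182 and 15183 and the 4 MUC4 probes are filled on every array.

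Signals below are background-subtracted intensities, and log2 levels are the log2 of that signal minus the median of the array. Probes differ in how strongly they bind, so levels were set only against the same probe on other arrays, never against another probe. The arrays had 55.6% to 60.4% of spots well above background, with replicate 4 the lowest. Spearman correlations between arrays were 0.974 to 0.979. The lowest signal called well above background was between 19.0 and 22.3 on the 4 arrays, which sets the limit of detection, and the 4 arrays limit the precision of every SD. The line showed the markers of its labelled origin: 8 of 9 colon epithelial genes were detected, beside 52.5% of all gene names. Among them were EPCAM, KRT18 and CDX2, while VIL1 was above background on no array. Of markers of other cell types, 1 of 5 for fibroblasts (COL1A1), 2 of the 4 found for leukocytes (CD3E and PTPRC) and 2 of 3 for endothelium (VWF and CDH5) were detected, and their part in the mucin values was not tested. COL1A2, COL3A1, LUM and PECAM1 were above background on no array.

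MUC2, the secreted mucin that forms the scaffold of colonic mucus, was measured by 4 probes that did not give the same answer. The probe at position 4182 had signals of 377.5, 314.7, 287.2 and 279.1 on replicates 1 to 4. All of these were well above background and close together, with a log2 level of 2.16 ± 0.11 (SD, n = 4) and a span of 1.20-fold between the highest and the lowest array. The probe at position 15183 had signals of 227.1, 194.0, 196.7 and 195.6. Its log2 level was 1.53 ± 0.07 (SD, n = 4), with a span of 1.11-fold, and 3.77% of all detected probes had an SD as small or smaller. The gene-level value of MUC2, the median over its probes, coincided with this probe on every array, since the probe at position 13085 has no log2 value and was left out of the median.

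The other MUC2 probes were dim. At position 1334 the signals were 35.0, 34.3, 29.1 and 19.0, well above background on replicates 1 to 3 but not on replicate 4, where the value lay under the lowest signal called well above background there (22.3). At position 13085 the signals were below 0 on every array, between -8.91 and -5.74, so no log2 level exists for this probe. Signals at or below 0 on all 4 arrays occurred in 6.15% of all probes and in 2 of the 18 mucin probes, this one and the MUC13 probe. Whether the probe at position 13085 can bind the MUC2 transcript of these cells was not tested.

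**Figure D2:**
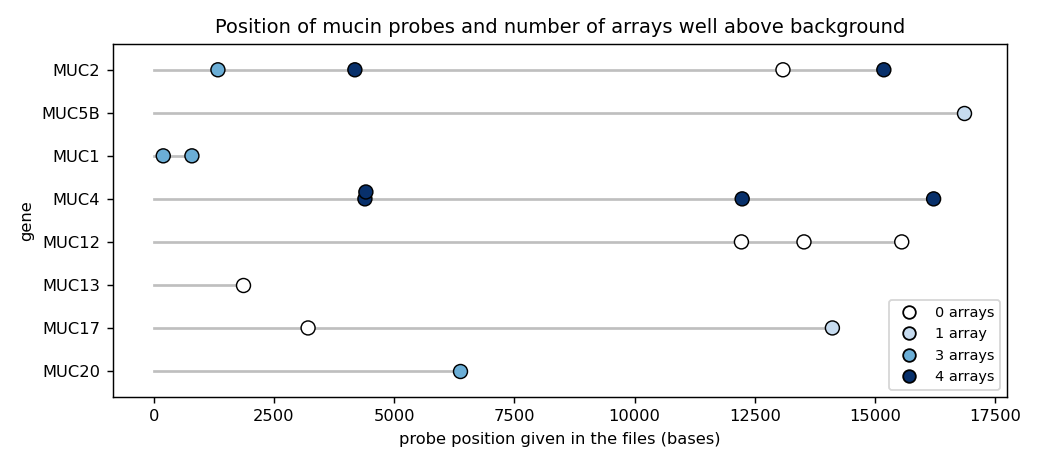
Position number of each mucin probe in the files (x axis, bases) for the 8 genes (y axis), with shading for the number of arrays, 0, 1, 3 or 4, on which the probe was well above background; grey lines run from 0 to the last probe and are not transcript lengths, and 1 of the overlapping MUC4 probes is raised so that both are seen. MUC2 has probes above background on 3, 4, 0 and 4 arrays in order of position, while all MUC4 probes reach 4 arrays.

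MUC4, a membrane mucin that associates with the receptor ERBB2, was the only one of the 8 genes in which every probe was detected. At position 4391 the signals were 1203.1, 981.9, 920.2 and 984.0 on replicates 1 to 4, with a log2 level of 3.86 ± 0.12 (SD, n = 4). At position 4411 they were 1382.8, 1084.1, 869.0 and 985.4, with a log2 level of 3.93 ± 0.22 (SD, n = 4). This was the one detected mucin probe that spanned more than 1.4-fold between arrays (1.45-fold), against 43.5% of all detected probes; 1.4-fold is the size of change that the methods of the study use. At position 12237 the signals were 673.9, 629.5, 509.1 and 593.7, with a log2 level of 3.09 ± 0.16 (SD, n = 4). At position 16218 they were 50.6, 59.7, 55.5 and 45.8, with a log2 level of -0.41 ± 0.16 (SD, n = 4). Replicate 3 was the lowest array for the first 3 of these probes, and replicate 1 for the last.

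The MUC4 probe at position 4391 shares sequence with the probes at positions 4411 and 12237, and these 3 probes were alike in being lowest on replicate 3, though not on the other arrays. On replicate 2 their deviations from the 4-array mean were -0.05, 0.03 and 0.07 (log2), and their highest array was replicate 1 for the first pair and replicate 4 for the probe at position 12237. On replicate 3 the deviations from the 4-array mean were -0.15, -0.30 and -0.24 (log2) for the probes at positions 4391, 4411 and 12237, and 0.07 for the probe at position 16218. Over all detected probes the median deviation on replicate 3 was 0.11, and replicate 3 was the highest array for 50.4% of probes and the lowest for 23.5%. The 3 deviations stood at percentiles 21.5, 11.3 and 14.7 of all detected probes on that array, so none was extreme by itself. The first pair overlaps and is not independent. With centring on the median over all probes, 2 of the 3 were lowest on replicate 3. Against the mean of the other arrays, replicate 3 was lower by a mean log2 difference of -0.30 over these 3 probes, between -0.26 and -0.43 under other scalings, while the difference for the probe at position 16218 was 0.10 and lay between -0.02 and 0.14, so that its sign was not settled. These scalings and the grouping of probes were chosen after their values were seen, and no test was made. Being lowest on replicate 3 was not particular to these 3 probes. The MUC2 probe at position 4182, which shares no run of 15 bases or more, was lowest there too (deviation -0.12, percentile 23.5). The MUC2 probe at position 15183 was lowest on replicate 2 (deviation on replicate 3 -0.05). The detected MUC6 and MUC16 probes were also lowest on replicate 3, the MUC16 probe with a signal of 21.4 near the limit of detection. The OVGP1 probe was lowest on replicate 4, and the detected MUC5AC probes were split between these arrays. Whether a probe to a repeated stretch binds more than 1 site of the transcript was not tested.

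**Figure D3:**
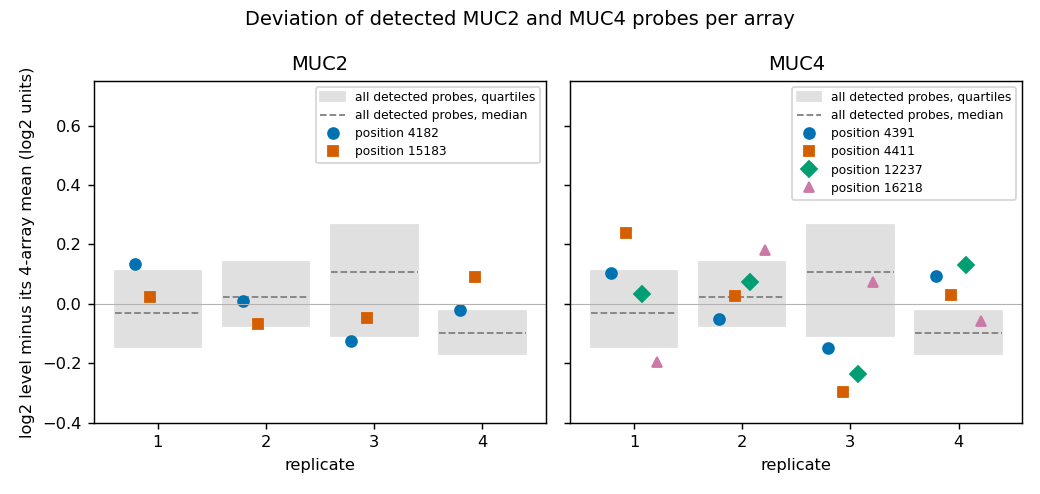
Log2 level minus its 4-array mean (y axis, log2 units) of the detected MUC2 (left) and MUC4 (right) probes on replicates 1 to 4 (x axis), 1 symbol per probe by position number. Grey boxes span the quartiles of all 24633 detected probes on each array, and dashed lines their median. On replicate 3 the MUC4 probes at positions 4391, 4411 and 12237 lie at -0.15, -0.30 and -0.24, under the lower quartile of -0.11. The MUC2 probe at position 4182 lies under it too, at -0.12. The MUC4 probe at position 16218 lies at 0.07 and the MUC2 probe at position 15183 at -0.05.

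The gene-level spread between replicates was below the median of all detected genes for both detected mucins. The gene-level SD was 0.07 for MUC2 and 0.15 for MUC4 (log2, n = 4 each), with a median of 0.11, beside a median of 0.21 over all 19083 detected genes. By probe, the median SD of the 6 detected mucin probes was 0.14, beside 0.20 over all 24633 detected probes and 0.21 over the 13805 of them within the brightness range of the mucin probes. The MUC4 probe at position 4411 lay above these medians, with an SD of 0.22, and 57.4% of detected probes had an SD as small or smaller. Neither gene spanned more than 1.4-fold (0 of 2), against 46.4% of all detected genes. But 1 did with the processed signal of the scanner software and 1 with normexp background correction and quantile normalization. In these settings the SD of MUC4 was 0.25 and 0.23, and that of MUC2 0.11 and 0.04. The MUC2 median can take in the probe at position 13085 there, so these SDs need not describe the same probes as the 0.07. At 2 genes these figures are a description only, and without replicate 4 the median SD was 0.27 and both detected mucins of the full set were joined by MUC1 and MUC20, with 2 of 4 then spanning more than 1.4-fold.

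MUC1, a membrane mucin of most simple epithelia whose cytoplasmic tail takes part in signalling, was represented at positions 197 and 793. The probe at position 793 (chr1:155158652-155159726, minus strand, spanning 1075 genomic bases and so at least 1 intron) had signals of 202.6, 172.9 and 153.2 on replicates 1, 2 and 4. Its spot on replicate 3 had a signal of 197.9 and was well above background, but the software flagged the local background of that spot as outlying, and it was left out. The log2 level was 1.32 ± 0.06 (SD, n = 3). With the spot kept, MUC1 counted as detected, and the counts rose to 3 of 8 mucins and 2 of 6 membrane mucins. The probe at position 197 (chr1:155161975-155162034) had signals of 37.6, 29.1, 25.4 and 18.3 and was not well above background on replicate 4, the array with the lowest value. Because the median over probes fell to the dim probe on replicate 3, the gene-level SD of MUC1 was 0.74 with the spot left out and 0.18 with it kept.

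MUC20, a membrane mucin known to bind the receptor MET, had 1 probe (chr3:195464463-195464522, plus strand). Its signals were 33.7, 30.3, 48.0 and 21.4 on replicates 1 to 4, highest on replicate 3 and not well above background on replicate 4. The log2 level was -1.13 ± 0.42 (SD, n = 4), with a span of 2.03-fold. The dim probes of MUC1 and MUC2 and the probe of MUC20 were therefore lost on the same array. Replicate 4 was also the only array to miss 863 probes of the whole array, against 954 for replicate 3 and at most 216 for the others. Probes whose spot was left out for an outlier flag count as missed here, whatever their signal. Replicate 3 had 2249 flagged spots against 527 on replicate 4, so the 863 and 954 are not counts of dim probes alone.

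MUC5B, a secreted mucin best known from airway mucus, had 1 probe, at position 16846 (chr11:1281060-1281239, plus strand). Its signals were 10.6, 64.6, 9.94 and 7.23, well above background on replicate 2 alone. MUC17, a membrane mucin of the intestinal brush border, was above background on the same array only, at position 14113 (chr7:100701904-100701963, plus strand), with signals of 1.12, 37.8, 6.69 and 10.0. The other MUC17 probe, at position 3209, had 9.99, 14.7, 3.15 and 10.6 and was not above background on any array. Over the whole array, 2679 probes (5.29%) were above background on exactly 1 array, 632 of them (23.6%) on replicate 2. The detected spots around the MUC5B and MUC17 probes deviated by a median of 0.09 and 0.04 (log2) on replicate 2.

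The remaining membrane mucins were well above background on no array. MUC12 had 3 probes, at positions 12221, 13522 and 15555, whose signals lay between 0.487 and 18.7 over the 4 arrays. MUC13, a membrane mucin that is abundant in normal gut epithelium, had 1 probe (chr3:124625256-124625315, minus strand) with signals of -2.32, -2.83, -1.99 and -4.48. The MUC12 probes at positions 12221, 13522 and 15555 did carry the weaker flag for a signal significantly above background, on 3, 3 and 4 arrays. The MUC13 probe carried it on 0 arrays. For MUC13 the data bound the signal from above only, which does not show that the transcript was absent.

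Detection was also counted by position in the genome, beside the 52.5% of all gene names. On chromosome 11, where MUC6, MUC2, MUC5AC and MUC5B lie within 268 kb by their probes, 3 of 4 genes were detected, and the exception was MUC5B, 68.0 kb from the nearest MUC5AC probe. On chromosome 7, where MUC3A, MUC12 and MUC17 lie within 149 kb, 0 of 3 were detected. MUC4 and MUC20 on chromosome 3, whose nearest probes are 9.64 kb apart, included 1 detected gene of 2. When a probe above background on any 1 array sufficed, the counts were 4 of 4, 1 of 3 and 2 of 2. The share of all gene names under that rule was 64.5%. Of the genes counted, MUC5B and MUC17 were above background on replicate 2 alone. These counts were not tested.

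With the other mucins of the chosen lists added, secreted mucins were detected in 4 of 7 genes (MUC2, MUC5AC, MUC6 and OVGP1). OVGP1 was the only listed mucin without a MUC symbol, and no such gene was listed among the membrane mucins. Membrane mucins were detected in 2 of the 11 found on the array by name (MUC4 and MUC16). Over all gene names the share was 52.5%, and the counts were not tested. MUC5AC, the gel-forming mucin of the stomach surface, had log2 levels of -0.66, -0.80, -0.57 and -1.04 (SD 0.20). MUC16, a membrane mucin also known as the antigen CA125, had log2 levels of -2.49, -2.08, -1.84 and -1.33 (SD 0.49), the median of a detected probe and a probe above background on no array. The detected MUC16 probe alone had -1.18, -1.32, -1.71 and -0.08, highest on replicate 4 and lowest on replicate 3. Its signals of 34.0, 28.0, 21.4 and 60.2 were near the limit of detection. On replicate 3 some probes with a signal up to 21.5 were not called well above background. MUC7, MUC19, MUC3A, MUC15 and MUC21 were above background on no array, MUC22 on 1 array, and MUC3B was not found by name. The gene description of a probe can predate current annotation, and all 8 mucin symbols were still current in RefSeq.

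**Figure D4:**
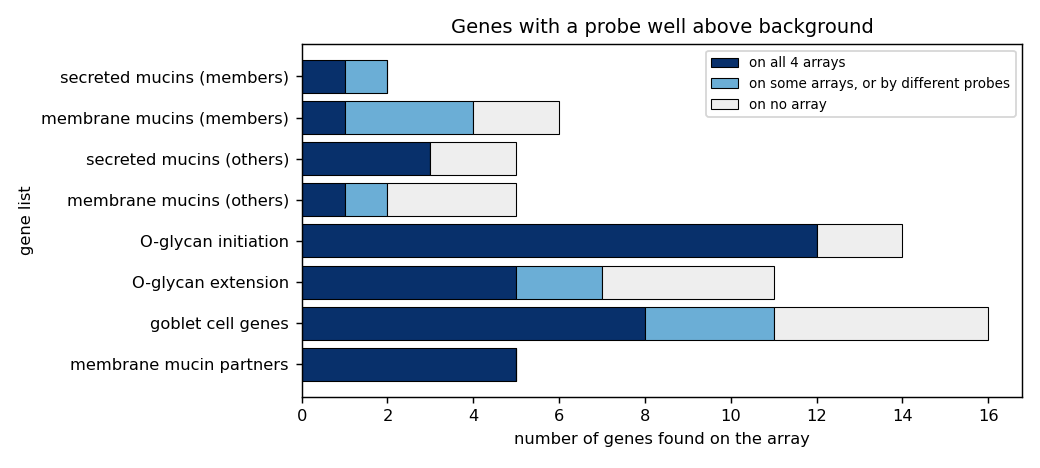
Number of genes found on the array (x axis) in each list (y axis), split into genes detected on all 4 arrays, genes above background on some arrays or through different probes, and genes above background on none. O-glycan initiation has 12 of 14 genes detected, O-glycan extension 5 of 11 and the membrane mucin partners 5 of 5, beside 1 of 2 secreted and 1 of 6 membrane mucins. Over all gene names the share detected is 52.5%.

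The enzymes that glycosylate mucins were read from the same arrays. Of the 14 listed GALNT enzymes that start O-glycans, GALNT1 to GALNT14, 12 were detected, beside 52.5% of all gene names. GALNT8 and GALNT13 were above background on no array. GALNT14 was the steadiest, with log2 levels of 4.36, 4.56, 4.52 and 4.31 (SD 0.12), and GALNT4 the most variable, with 0.40, 0.87, 1.48 and 0.70 (SD 0.45). Of these 12, 9 spanned more than 1.4-fold, beside 46.4% of all detected genes, and their median SD was 0.25. Of the 11 genes listed for O-glycan extension, enzymes and a chaperone, 5 were detected. Their median SD was 0.19 and 1 spanned more than 1.4-fold, beside the same shares of 52.5% and 46.4%. Among the 5 was C1GALT1, the core 1 synthase, with log2 levels of 2.06, 2.33, 2.41 and 1.91 (SD 0.23). Its chaperone C1GALT1C1 was above background on the 3 arrays where its spot was kept. B3GNT6, the core 3 synthase, GCNT3, GCNT4 and ST6GALNAC1 were above background on no array.

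Of 16 genes of goblet cells, the cells that secrete MUC2 in the colon, 8 were detected, beside 52.5% of all gene names. Of these 8, 3 spanned more than 1.4-fold, beside 46.4% of all detected genes, and the median SD was 0.19. A further 5 were above background on no array. These were ATOH1, the transcription factor that directs secretory cell fate, and the secreted goblet cell proteins CLCA1 and ZG16, besides FOXA2 and SPINK4. Also not detected were AGR2, above background on 3 arrays, REG4, above on 1, and KLF4. KLF4 was above background on replicates 1, 2 and 4, and its probe had no value on replicate 3. FCGBP, a mucus protein that associates with MUC2, had log2 levels of 2.85, 2.69, 2.80 and 2.73 (SD 0.07). TFF3, a trefoil peptide secreted with MUC2, had -2.40, -2.30, -2.19 and -1.23 (SD 0.54). On replicate 4 a dim TFF3 probe with a signal of -1.36 dropped from that median, and the detected TFF3 probe alone had 0.10, -0.29, -0.13 and -0.16. All 5 partners of membrane mucins were detected: EGFR, ERBB2, MET, CTNNB1 and LGALS3 (median SD 0.13, 1 spanning more than 1.4-fold). The same shares of 52.5% and 46.4% stand beside these counts, and no list was tested. LGALS3, the galectin that binds mucin glycans, had an SD of 0.05, and CTNNB1, the beta-catenin that binds the MUC1 tail, an SD of 0.23.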

How the data were processed

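Total RNA of 4 bafilomycin A1 replicates was hybridised to Agilent arrays of 1 colour (Cy3), 1 per replicate, all on 1 slide. The design calls them biological replicates. The authors deposited 1 scanner file per array, made with Agilent Feature Extraction 10.7.3.1 per the submitters' processing notes. The deposited intensities are linear; the authors' software had subtracted the local background of each spot before deposit, and nothing was normalized between arrays. No spot was saturated (0 spots). Saturation, background and outlier flags were taken from the deposited files.

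Control spots and spots with an outlier flag for the spot or its local background were left out (514, 725, 2249 and 527 spots on replicates 1 to 4). Spots of a probe were averaged, log2 transformed and centred on the array median. The median over probes gave the gene level. Values at or below 0 were left out on the array concerned. Detection of a probe on an array required the flag for a signal well above background on over 50% of its spots, and a gene was detected when 1 of its probes met this on all 4 arrays. With 1 treatment group no test between groups was possible. An array was called apart by Dixon's ratio for 4 values. The calculations were tested on simulated data.

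Alternatives were another detection flag, fewer arrays, outlying spots kept, centring of the processed signal on the array's 75th percentile, normexp (offset 50) with quantile normalization in limma 3.58.1, other probe filters and centring, and each array left out. The members and lists were chosen with earlier results of these data known. Named genes are the 8 members, list genes by their detection, values for list members with the largest and smallest SD or near a member on its chromosome, and for each detected mucin probe its 2 genes of nearest pattern. Lists held other mucins, O-glycan genes, goblet cell genes, membrane mucin partners and cell type markers. Python 3.11.15, numpy 2.4.6, pandas 2.3.3, scipy 1.17.1, matplotlib 3.10.9 and R 4.3.3 were used.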

Additional observations from a re-analysis of the deposited data

Results flagged for a closer look

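In 4 values a single array lay far from the others by Dixon's ratio, the gap to the nearest array over the whole range. Chance marks about 1 in 20 values, and 2 of the 20 mucin values with 4 arrays and 2 of the 11 list genes named with values were marked, beside 7.3% of all detected probes. These counts cannot be set against those shares. The 11 list genes were named mostly for the largest or smallest SD of their list. The 20 mucin values include undetected probes, as the 2 marked ones were, and gene medians over the same probes. MUC5B on replicate 2 had a ratio of 0.896, with a log2 level of -0.12 against -3.13 to -2.82 on the other arrays. The MUC12 probe at position 12221 on replicate 1 had a ratio of 0.856, with -7.31 against -3.96 to -3.40, all not well above background. B3GNT3, an O-glycan extension enzyme, had a ratio of 0.913 on replicate 3, with 5.39 against 5.28 to 5.29, and replicate 3 made up 71.8% of the marked detected probes. MUC6, a secreted mucin of the stomach glands, had a ratio of 0.94 on replicate 4, with 1.21 against -1.07 to -0.93. Its dim probe had a signal of -1.29 on replicate 4 and so dropped from the median there, while its detected probes had log2 levels of -0.93, -1.02, -1.07 and -0.85, and 3.38, 3.22, 2.98 and 3.27, on replicates 1 to 4.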

How the results depend on the processing

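The count of detected mucins rested on the definition of detection. It was 2 of 8 as reported, 4 when 3 arrays sufficed and 6 when 1 array sufficed. It was 6 with the flag for a signal significantly above background, MUC12 among them. With each array left out in turn it was 2 to 4, reaching 4 without replicate 4. Secreted mucins detected were 1 as reported, 2 when 1 array sufficed and 2 with the other flag, and 1 to 1 with an array left out. Membrane mucins detected were 1 as reported, 3 when 3 arrays sufficed, 4 when 1 array sufficed, 4 with the other flag, 2 with outlying spots kept, 2 with only spots flagged for the spot itself left out (chosen after seeing the data), and 1 to 3 with an array left out (2 without replicate 3 and 3 without replicate 4). Probes detected were 6 as reported, 10, 11 and 12 under 3 arrays, the other flag and 1 array, and 6 to 9 with an array left out. Over all gene names the same rules gave 56.3% for 3 arrays, 64.5% for 1 array, 65.4% for the other flag and 54.2% with outlying spots kept. Detected mucins spanning more than 1.4-fold were 0 as reported, 1 with the processed signal, 1 with normexp and quantile normalization, and 0 to 2 with an array left out. The median SD was 0.11 and ran from 0.078 to 0.269 with an array left out. Gene levels are tied to the scaling. With the processed signal 0 of 7 mucin levels, and with normexp and quantile normalization 0 of 7, stayed within their SD. With centring over all probes 2 of 7 did, MUC5B and MUC17, whose SDs of 1.42 and 1.33 were the largest. These settings also move the centre for all genes of an array, so the counts do not show how steady the mucin levels are. The MUC2 level went from 1.53 to -2.28 with the processed signal and 0.70 with normexp, and that of MUC4 from 3.47 to 1.11 and 3.06. The probes that enter a median can change as well. The MUC2 probe at position 13085 has no log2 value as reported but can have one with the processed signal or normexp. Every MUC4 probe has a value on all 4 arrays as reported. Beyond these changes of centre, probes, rule or arrays, the cause of the shifts was not tested. MUC5B's SD of 1.42 was 0.17 without replicate 2, MUC4's of 0.15 was 0.052 without replicate 3, MUC12's of 0.53 was 0.30 without replicate 1, and MUC20's of 0.42 was 0.21 without replicate 3. No paired analysis was possible because the untreated samples that share the replicate numbers were not analysed here.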

Other observations

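Among detected genes, those whose deviations over the 4 arrays lay nearest to a detected mucin probe were found by the root mean square difference (log2). For MUC2 they were PPP6R1 (0.00638) and ZNF664-FAM101A (0.00705) at position 4182, and CRTC1 (0.004) and Q21C94 (0.00625) at position 15183. For MUC4 they were CDK3 (0.00765) and XLOC_004180 (0.00862) at position 4391, LOC644277 (0.0169) and THC2499666 (0.017) at position 4411, XLOC_006353 (0.00317) and LOC100130987 (0.0152) at position 12237, and CNNM4 (0.0122) and MSH3 (0.0131) at position 16218. Likeness over 4 arrays is common, since 602 to 1784 of 19082 other detected genes lay within 0.1 of each of these mucin probes. Runs of 15 bases or more shared with a probe of another name were found for 4 mucin probes, those of MUC13 (15 bases), MUC17 at position 14113 (16), MUC4 at position 12237 (16) and MUC1 at position 793 (17).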
